A study of Mus musculus with 4 samples.

Results

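Msx1, Msx2, Dlx5 and Dlx6 are 4 homeobox genes among the 27734 gene identifiers shared by the matrices, and they are described here across the cell types of the mouse aorta. They were matched by Ensembl identifier. Cells were sorted by fixed marker UMIs, where a UMI stands for 1 captured transcript. The main population is the 8386 cells with 5 or more UMIs of Myh11, the smooth muscle myosin heavy chain, out of 25593 kept cells. The genes were chosen by their measured UMIs in earlier results of the same data, where they marked part of the arch smooth muscle, so their levels and their co-detection are descriptions with no test.

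The 4 libraries were made from the aortic arch and from the descending thoracic aorta of mice aged 16 to 20 weeks, with 1 library per group. Control mice had the genotype CNC-SMC-Cre;R26-tdT, and cKO mice had CNC-SMC-Cre;Smad4flox/flox;R26-tdT. All groups therefore carry the Cre driver and the tdT reporter, and the cKO groups differ by floxed alleles of Smad4, which encodes the shared transducer of TGF-beta and BMP signals. The labels do not spell out which cells CNC-SMC-Cre marks, and neither they nor the files say how many animals went into a library or which cells had recombined.

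Msx and Dlx proteins bind DNA through a homeodomain and read similar AT-rich sequences. Msx1 and Msx2 act mostly as transcriptional repressors and are classical targets of BMP signalling in the embryo, while Dlx5 and Dlx6 act mostly as activators and, in the pharyngeal arches, lie downstream of endothelin signalling through Ednra. Cranial and cardiac neural crest cells, which also form smooth muscle of the great arteries, pass through these programmes during development, and Msx2 and Dlx5 are further known from bone formation and from calcifying vascular cells.

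The genes lie at 3 places of the GRCm38 genome in the GENCODE annotation. Msx1 (ENSMUSG00000048450) is on the minus strand at chr5:37820485-37824583 and Msx2 (ENSMUSG00000021469) on the minus strand at chr13:53466884-53473074, each with 2 exons. Dlx5 (ENSMUSG00000029755, minus strand, chr6:6877805-6882085) and Dlx6 (ENSMUSG00000029754, plus strand, chr6:6863334-6868568) form a convergent pair 9236 bases apart, each with 3 exons. All 5235 bases of Dlx6 lie inside the antisense gene Dlx6os1 (chr6:6820189-6871592). Their exons share 0 bases. No source used here says whether counting took account of strand or introns, and the split of UMIs between Dlx6 and Dlx6os1 is therefore uncertain.

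RefSeq promoter windows (GRCm38.p6) were matched for 2 of the 4 members, Msx1 and Msx2. They are shown because homeodomain proteins of this family read TAATTA and because Msx genes are known as BMP targets in the embryo. Whether they answer to Smad4 in these cells was not tested. For Msx1 the 250 bases before the RefSeq start are given, from chr5:37824586-37824835 on the minus strand, with CCAAT boxes on either strand in capitals. For Msx2 a stretch of 30 bases is given, which starts 199 and ends 170 bases before the RefSeq start, from chr13:53472950-53472979 on the minus strand, with TAATTA in capitals. This stretch lies inside the GENCODE gene, which starts further upstream than the RefSeq entry.
Msx1: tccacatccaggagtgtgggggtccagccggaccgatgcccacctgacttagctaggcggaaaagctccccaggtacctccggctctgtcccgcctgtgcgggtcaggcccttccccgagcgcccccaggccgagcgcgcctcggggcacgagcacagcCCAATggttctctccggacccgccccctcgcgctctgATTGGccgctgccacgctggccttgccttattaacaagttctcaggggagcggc
Msx2: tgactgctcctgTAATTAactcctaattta

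In windows of 250 bases before the start, searched on both strands, TAATTA occurred 1 time in Msx2 and 0 times in Msx1, and 4.84% of 32851 windows held it. The Smad-type motif CAGAC was found in neither window, against 42.2% of all windows, and the Smad4-type motif GGCGCC in neither, against 9.59%. CCAAT, looked for after the Msx1 window had been read, occurred 2 times in Msx1 and 1 time in Msx2, and 33.8% of windows held it. Matches of different motifs overlapped 0 times. A match is a description of the letters and no evidence of binding.

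The files held between 6351 and 9283 barcodes and between 49407811 and 98866674 UMIs per library, and 5206 to 8644 cells per library passed the filters. Any pair of libraries shared 66 to 99 barcodes, at most 1.37% of a library. The control arch library stood apart in depth, with a median of 10226.5 UMIs per kept cell against 5736, 6575 and 7087.5 in the cKO arch, cKO descending and control descending libraries. It also alone held the Y-linked Ddx3y, with 1380 UMIs against 0 in each of the others, beside 30098 UMIs of Xist. The cKO arch file was counted against another annotation than the others, and every value here rests on shared identifiers. Intervals are at 95% and cover counting error only, not the spread between animals.

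The Myh11 gate took 4114 cells of the control arch, 1273 of the cKO arch, 1350 of the control descending and 1649 of the cKO descending library, with medians of 14442, 12152, 13433.5 and 11798 UMIs per cell. Summed contractile markers reached 45691, 38906, 42037 and 45546 CPM, the UMIs of a gene per 1000000 UMIs of all cells in the gate, in the same order. None of the listed markers of other cell types was at 0 in the gate. Summed fibroblast markers lay between 991 and 1439 CPM, and leukocyte markers between 26.6 and 65.8 CPM. Summed pericyte markers were 730 CPM in the control arch, 294 in the cKO arch, 938 in the control descending and 1237 in the cKO descending library. Endothelial markers were 103, 26.9, 131 and 164 CPM in that order, so both were lowest in the cKO arch. Markers of modulated mesenchyme (Spp1, Comp, Timp1, Igfbp2 and Tnfrsf11b) reached 2170 CPM in the cKO arch and 94.0 to 108 CPM elsewhere. Their part in the differences below was not tested.

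Msx1 RNA was found in Myh11 5+ cells of every library. It had at least 1 UMI in 26.9% of control arch cells (25.5 to 28.3%), 22.0% of cKO arch cells (19.7 to 24.4%), 14.1% of control descending cells (12.3 to 16.0%) and 12.6% of cKO descending cells (11.0 to 14.2%). The summed level was 25.2, 21.1, 14.1 and 13.0 CPM in that order. Both arch libraries were above both descending ones, and within each region the genotypes were close. Of the positive control arch cells, 71.4% held a single Msx1 UMI.

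Msx2, the other repressor of the pair, was nearly restricted to the arch libraries. It was positive in 12.8% of control arch cells (527 cells, 11.8 to 13.9%), 4.48% of cKO arch cells (57 cells, 3.41 to 5.76%), 0.148% of control descending cells (2 cells) and 0 of 1649 cKO descending cells, which allows a share of up to 0.182% by a limit of 3 counts. Its level was 24.5, 6.75, 0.107 and 0 CPM. Unlike Msx1, it was concentrated: 22.2% of the positive control arch cells held 5 or more Msx2 UMIs.

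Dlx5 was positive in 18.4% of control arch cells (758 cells), 7.70% of cKO arch cells (98), 3.04% of control descending cells (41) and 1.70% of cKO descending cells (28). Its summed level was 31.0, 9.24, 2.56 and 1.48 CPM. Dlx6, its neighbour on the chromosome, was positive in 10.8% (445 cells), 4.40% (56), 0.148% (2) and 0.121% (2) of cells, at 12.5, 4.36, 0.213 and 0.148 CPM. Both Dlx genes followed the order of Msx2, highest in the control arch, lower in the cKO arch and lowest in the descending libraries.

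**Figure D1:**
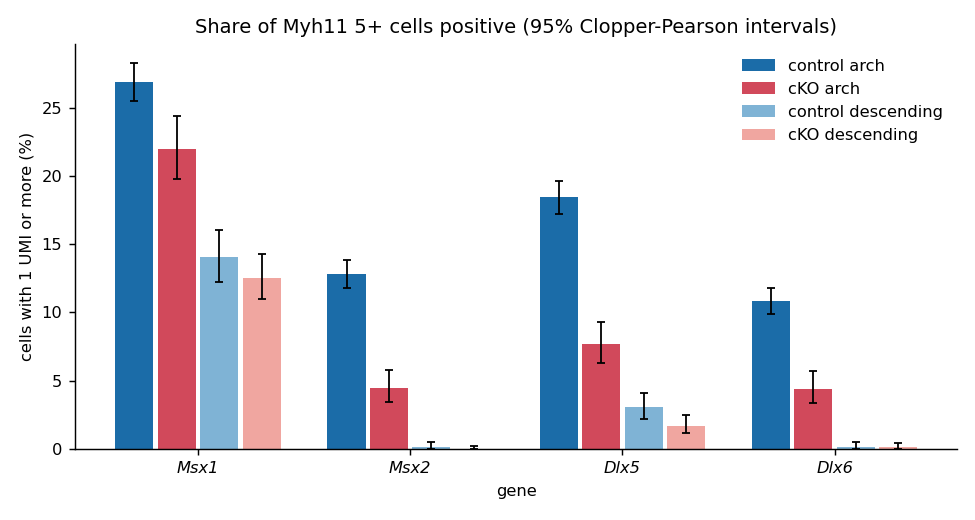
Share of Myh11 5+ cells with at least 1 UMI of each gene, in percent, for the 4 libraries, with 95% Clopper-Pearson intervals as bars. Msx1 is present in all libraries (12.6 to 26.9%), while Msx2 and Dlx6 are nearly limited to the arch, at 12.8 and 10.8% in the control and 4.48 and 4.40% in the cKO.

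Leukocytes, which should lack all 4 genes, give the level that free RNA can reach. In the Ptprc gate (519, 1414, 602 and 566 cells of the control arch, cKO arch, control descending and cKO descending library, with medians of 5392, 5717.5, 7046 and 5890.5 UMIs) Msx1 was positive in 0.578, 1.06, 0 and 0.353% of cells. Dlx5 was positive there in 0.771, 0.141, 0 and 0%, Msx2 in 0.193% of the control arch and 0 elsewhere, and Dlx6 in 0 cells of all 4 libraries. The arch shares in Myh11 5+ cells lay above these in every case, also after each cell had been thinned to 5000 UMIs, when the control arch gave 10.8, 7.32, 10.7 and 4.58% for Msx1, Msx2, Dlx5 and Dlx6. The 2 Msx2-positive cells of the control descending library are too few to set apart from background.

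The genotype comparison in the arch had 3 members lower by 2-fold or more in the cKO library and 1 nearer to even. The log2 ratio of cKO to control was -1.85 for Msx2 (-2.14 to -1.59), -1.74 for Dlx5 (-1.99 to -1.52) and -1.51 for Dlx6 (-1.87 to -1.18), and -0.25 for Msx1 (-0.42 to -0.09). Among 12319 genes tested, 8.08% were lower by 2-fold or more and 4.21% higher, and the median over all of them was -0.13. These genes were chosen with this contrast known, so the count is not read against that share. An alternative left out the Myh11 5+ cells that also pass the Kcnj8, Abcc9 and Higd1b gate, 1499 of the control arch and 359 of the cKO arch. The ratios were then -0.99 for Msx2 (-1.32 to -0.69), -1.16 for Dlx5 (-1.46 to -0.87) and -0.82 for Dlx6 (-1.26 to -0.42). Dlx5 alone of the 3 had a value past 2-fold, but all 3 intervals reach across 2-fold. Thinned to 5000 UMIs, Dlx6 had -0.78. A positive cell held a mean of 3.0 Msx2 and 2.65 Dlx5 UMIs in the control arch and 2.09 and 1.66 in the cKO arch. Both the share of positive cells and the UMIs in each were thus lower in the cKO arch. Its cells were also shallower, with a median of 12152 UMIs against 14442. In cells thinned to 5000 UMIs the shares were 2.41 against 7.32% for Msx2 and 4.04 against 10.7% for Dlx5. UMIs per positive cell were not compared at equal depth. With 1 library a group, the animal and the genotype cannot be told apart. The control arch library alone held Ddx3y, so sex cannot be told apart from genotype here, nor from region among the controls.

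The descending libraries held too little Msx2 and Dlx6 for a genotype comparison, with 2 and 4 UMIs in the control and 0 and 3 in the cKO. Msx1 had a log2 ratio of -0.12 (-0.37 to 0.13) from 265 and 264 UMIs. Dlx5 had -0.78 (-1.5 to -0.10) from 48 and 30 UMIs, below the 100 UMIs asked of a tested gene. Msx1, the only member that could be tested, did not pass 2-fold there, where 0.542% of 11448 genes were lower and as many higher.

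Between regions, all 4 genes were higher in the arch. In controls the log2 ratio of arch to descending was 7.52 for Msx2 (5.99 to 10.89), 5.70 for Dlx6 (4.51 to 7.75), 3.59 for Dlx5 (3.19 to 4.05) and 0.83 for Msx1 (0.65 to 1.03). Thus 3 members passed 2-fold, as did 2.95% of 12412 genes in that direction, with 3.71% lower. Without cells of the Kcnj8, Abcc9 and Higd1b gate, Msx1 came to 0.26 and Dlx5 to 2.90. In the cKO the Msx1 ratio was 0.70 (0.47 to 0.94), Dlx5 2.63 (2.08 to 3.26) and Dlx6 4.67 (3.29 to 7.20, from 80 UMIs), and Msx2 had 119 UMIs in the arch and 0 in the descending gate. Set against a floor of 3 UMIs over that gate, Msx2 was at least 45.7-fold higher, and with counting error in the arch too its log2 ratio had a lower limit of 5.19. Of the 3 members with 100 UMIs there, Msx2 and Dlx5 passed 2-fold, against 3.53% of 11351 genes higher and 7.43% lower. The 2 region comparisons use different libraries, but each shares its arch library with the genotype comparison.

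The relatives of the 4 genes split by cluster. Dlx1 and Dlx2, the paired Dlx genes of another chromosome, had 247 and 396 UMIs in Myh11 5+ cells of the control arch and 30 and 26 in the cKO arch, with log2 ratios of -1.15 and -2.03. In the control descending library both had 0 UMIs, and in the cKO descending library 1 and 0. Dlx6os1, the antisense RNA across Dlx6, had 510, 24, 4 and 6 UMIs in the control arch, cKO arch, control descending and cKO descending library and a cKO to control log2 ratio of -2.51 in the arch. Dlx3, Dlx4 and Msx3 had at most 5 UMIs in the Myh11 gate of any library, and Dlx1as, antisense to Dlx1, had 14 in the control arch and at most 1 elsewhere.

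**Figure D2:**
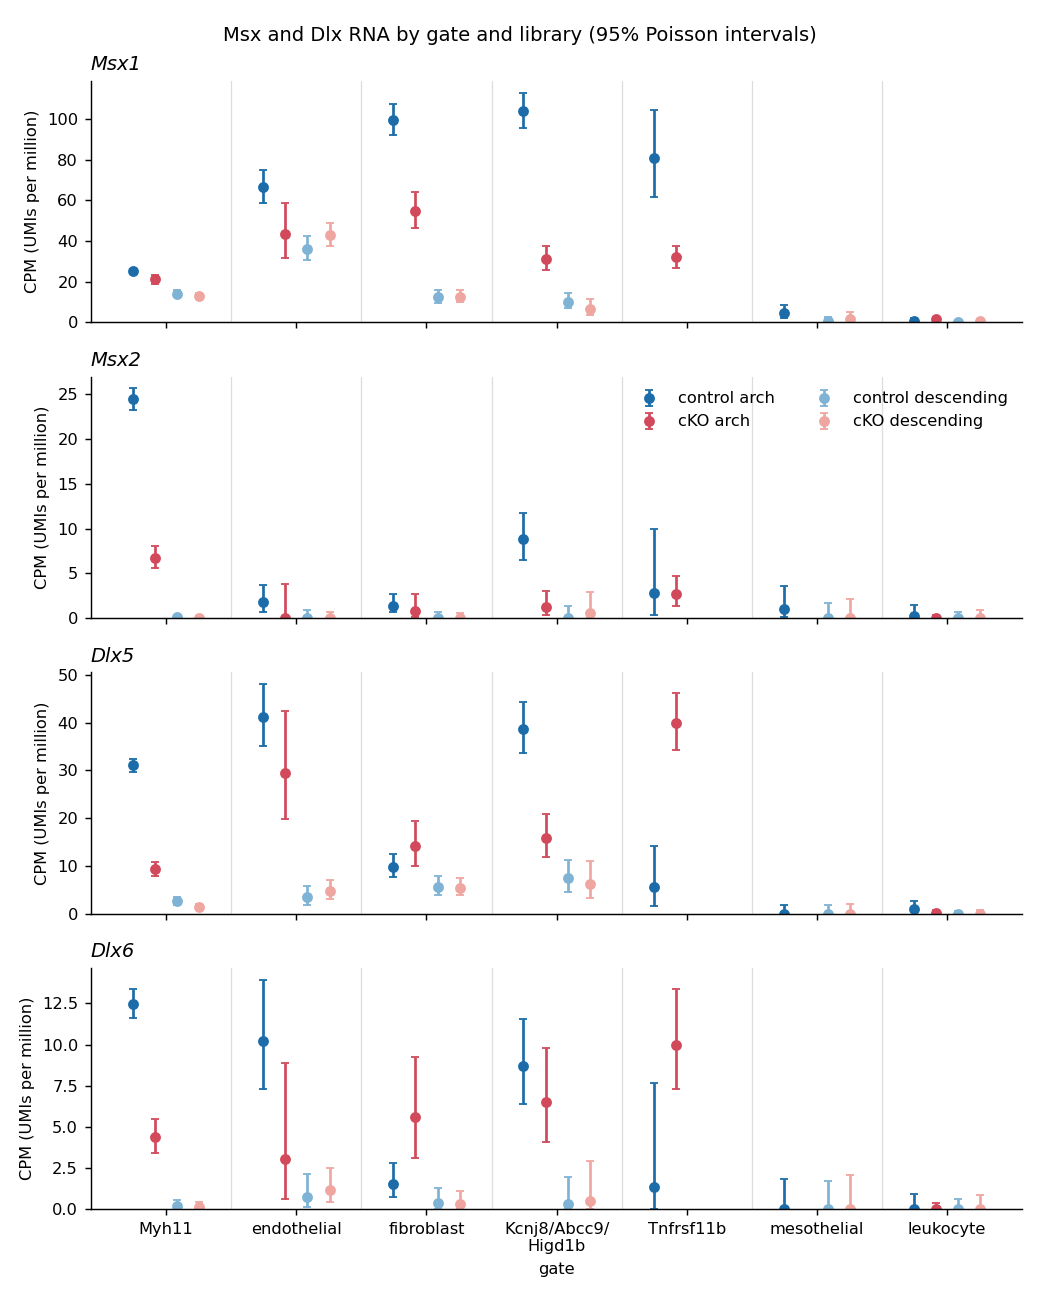
Summed level of each gene in CPM by marker gate, with 1 point per library and 95% Poisson intervals; gates under 50 cells in a library are left out. Msx1 is highest outside the Myh11 gate (104 CPM in the Kcnj8, Abcc9 and Higd1b gate of the control arch), Msx2 is highest inside it (24.5 CPM), and Dlx5 is at 40.0 CPM in the Tnfrsf11b gate of the cKO arch.

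Other cells of the arch wall also carried these RNAs, in another mixture. In the control arch, the Myh11 gate held 92.4% of all Msx2 UMIs, 79.3% of Dlx6 and 71.1% of Dlx5, but 42.1% of Msx1. The level of Msx1 there ran from 104 CPM in the Kcnj8, Abcc9 and Higd1b gate and 99.8 CPM in fibroblasts through 81.1 CPM in the Tnfrsf11b gate and 66.6 CPM in endothelium to 25.2 CPM in the Myh11 gate, 4.48 CPM in mesothelium and 0.777 CPM in leukocytes. The intervals of the first 3 overlap, and so do those of the Tnfrsf11b and endothelial gates. The order of Msx2 was 24.5 CPM in the Myh11 gate, 8.87 in the Kcnj8, Abcc9 and Higd1b gate and 2.75 or less in every other gate of at least 50 cells. The 55 lymphatic cells held 0 UMIs of all 4 genes, which allows a positive share of up to 5.45% by the same limit of 3 counts.

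The gate for pericytes (Kcnj8, Abcc9 and Higd1b, at 575, 285, 279 and 266 cells) is called by its genes because the data go against the name. Those cells held 5412 to 10545 CPM of Dcn, a fibroblast proteoglycan, and less than that of their own markers, with Rgs5 at 159 to 399 CPM. Msx1 measured 104, 31.2, 10.2 and 6.78 CPM in the gate in the control arch, cKO arch, control descending and cKO descending library, and Dlx5 measured 38.6, 15.9, 7.37 and 6.26 CPM. Both were highest in the control arch. The cKO to control log2 ratio in the arch was -1.73 for Msx1 (-2.05 to -1.44) and -1.27 for Dlx5 (-1.74 to -0.84), 2 members past 2-fold, against 5.43% of 8483 genes lower and 4.79% higher. The control arch to descending ratio was 3.33 for Msx1 (2.82 to 3.95) and 2.36 for Dlx5 (1.74 to 3.11), against 2.05% of 8387 genes higher and 2.34% lower. Among the 81 control arch cells of the gate with under 5 Dcn UMIs, an alternative chosen after the data had been seen, Msx2 reached 63.0 CPM, Dlx5 157 CPM and Dlx6 39.6 CPM. These levels came from 35, 87 and 22 UMIs at a median depth of 4514 UMIs per cell. The 83 such cells of the cKO arch gave 1.08, 21.6 and 10.8 CPM, from only 1, 20 and 10 UMIs at a median depth of 8923.

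Endothelial cells, gated on Cdh5 and Pecam1 (658, 154, 702 and 933 cells), carried Msx1 at 66.6, 43.7, 36.1 and 43.0 CPM and Dlx5 at 41.2, 29.5, 3.47 and 4.75 CPM. Dlx6 was at 10.2, 3.05, 0.743 and 1.14 CPM. Msx2 was at 1.79 CPM in the control arch and 0 in the other 3 libraries. Endothelial Msx1 was thus present in both regions while Dlx5 was mostly an arch RNA. The control arch to descending log2 ratio was 3.53 for Dlx5 (2.78 to 4.48) and 0.88 for Msx1 (0.58 to 1.18), 1 member past 2-fold, against 5.2% of 8543 genes higher and 4.74% lower. The cKO to control ratio in the arch was -0.59 for Msx1 (-1.11 to -0.14) and -0.46 for Dlx5 (-1.11 to 0.09), 0 members past 2-fold, against 4.88% of 6849 genes lower and 2.22% higher. Dcn in the gate, at 1245, 410, 83.2 and 198 CPM, was also highest in the control arch, and its part was not tested. In the control arch endothelium Dlx5 was found in 36.8% of the 155 Msx1-positive cells and in 9.54% of the others, and Dlx6 in 21.0% of the 105 Dlx5-positive cells and in 2.17% of the others.

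Fibroblasts, gated on Pdgfra and Dcn (857, 326, 558 and 828 cells), held mainly Msx1, at 99.8, 54.8, 12.5 and 12.7 CPM. The arch libraries were far above the descending ones. The control arch to descending log2 ratio was 2.99 (2.64 to 3.38), against 2.07% of 9307 genes higher by 2-fold and 1.57% lower, and cKO to control in the arch was -0.86 (-1.13 to -0.60), under 2-fold, as was Dlx5, while 6.46% of 8616 genes were lower and 5.81% higher. Dlx5 in fibroblasts was 9.84, 14.2, 5.61 and 5.44 CPM, and its arch genotype ratio of 0.53 had an interval across 0 (-0.09 to 1.13). Dlx6 was at 1.54, 5.59, 0.362 and 0.302 CPM.

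Cells with 2 or more UMIs of Tnfrsf11b, the gene of osteoprotegerin, and under 5 of Myh11 numbered 357 for the cKO arch, 53 for the control arch and under 50 in each descending library. They are described as a gate, since in the control arch they held 9346 CPM of Dcn and in the cKO arch 2653 CPM of Dcn and 14170 CPM of Spp1, the gene of osteopontin. Msx1 was 81.1 CPM in the control and 32.0 CPM in the cKO arch. Dlx5 was 5.50 CPM in the control (4 UMIs) and 40.0 CPM in the cKO (180 UMIs), where 22.7% of cells were positive, and Dlx6 was 1.37 and 9.99 CPM. Dlx5 here ran opposite to the Myh11 gate. The cKO to control log2 ratio was 2.70 for Dlx5 (1.48 to 4.75) and -1.35 for Msx1 (-1.79 to -0.88), against 8.33% of 6647 genes higher by 2-fold and 5.42% lower. Of all Dlx5 UMIs in the cKO arch, 34.6% lay in this gate and 31.3% in the Myh11 gate. In the cKO arch cells of the gate Dlx5 was found in 38.3% of the 94 Msx1-positive and 17.1% of the Msx1-negative cells, and Dlx6 in 29.6% of the 81 Dlx5-positive and 3.26% of the Dlx5-negative cells.

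Within Myh11 5+ cells of the control arch, Msx2, Dlx5 and Dlx6 were found in the same cells. Of the 527 Msx2-positive cells, 81.4% held Dlx5 (77.8 to 84.6%) against 9.17% of Msx2-negative cells (8.25 to 10.2%), and 58.3% held Dlx6 (53.9 to 62.5%) against 3.85%. Of the 445 Dlx6-positive cells, 84.9% held Dlx5 and 69.0% held Msx2, against 10.4 and 6.0% of Dlx6-negative cells. Msx1 joined more loosely. It was found in 52.0% of Msx2-positive cells (47.6 to 56.3%) and in 23.2% of Msx2-negative cells, and among the 1106 Msx1-positive cells 30.6% held Dlx5 and 24.8% Msx2, against 14.0 and 8.41% of the others.

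Counted by combination, 2504 control arch cells (60.9%) held none of the 4 genes and 713 (17.3%) held Msx1 alone. Dlx5 alone was found in 167 cells (4.06%), Msx2 alone in 47 and Dlx6 alone in 25, while 116 held Msx2, Dlx5 and Dlx6 together without Msx1 and 165 (4.01%) held all 4. At least 2 of the genes were present in 658 cells of the control arch (16.0%), 80 of the cKO arch (6.28%), 17 of the control descending and 6 of the cKO descending library. Depth differed with these counts, and cells with 2 or more members had a median of 16871.5 UMIs against 13699.5 with none. The share that also passed another gate was 18.7% against 11.3%. Thinned to 5000 UMIs, the 283 Msx2-positive control arch cells still held Dlx5 in 50.2% against 7.56% of the others, and Dlx6 in 21.6% against 3.24%.

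Shares were higher with more Msx2 in the cell. Control arch cells with 0, 1, 2 to 3 and 4 or more Msx2 UMIs (3587, 197, 168 and 162 cells) held Dlx5 in 9.17, 66.0, 87.5 and 93.8%, and Dlx6 in 3.85, 41.6, 63.1 and 73.5%. The level of Dlx5, which is scaled for depth, was 10.7, 98.6, 158 and 172 CPM across the same steps. For Msx1 it was 20.8 CPM without Msx2 and 51.7, 47.0 and 50.2 CPM at the further steps. Dlx5 was thus highest at the last step, though its interval (159 to 186 CPM) overlaps that of the step before (144 to 173 CPM). Msx1 was already at its full level at the first Msx2 UMI. The median depth of these cells was 14304, 13363, 15837.5 and 22097 UMIs, so the deepest step is also the deepest in sequencing.

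Dlx5 and Dlx6 were again found more in Msx2-positive cells of the cKO arch, at lower shares than in the control. Of its 57 Msx2-positive cells 63.2% held Dlx5 (49.3 to 75.6%) against 5.10% of the others, 36.8% held Dlx6 (24.4 to 50.7%) against 2.88%, and 28.1% held Msx1 (17 to 41.5%) against 21.7%. In the cKO the interval of the Msx1 share among Msx2-positive cells includes the share among Msx2-negative cells. All 4 genes were found together in 6 cells of the cKO arch and in 0 of either descending library.

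**Figure D3:**
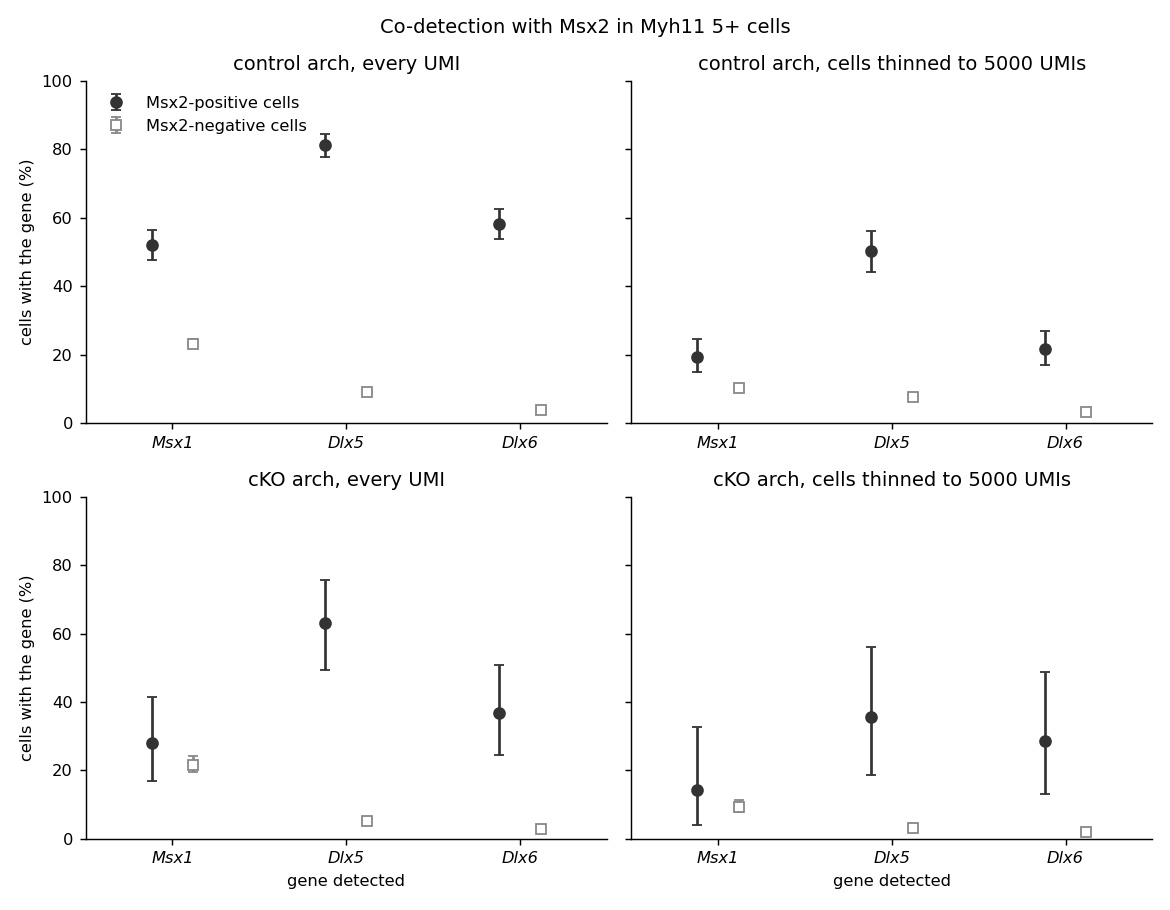
Share of Myh11 5+ cells holding Dlx5, Dlx6 or Msx1, in percent, among Msx2-positive and Msx2-negative cells of the control and cKO arch, with 95% Clopper-Pearson intervals. Dlx5 is found in 81.4% of the Msx2-positive and 9.17% of the Msx2-negative control arch cells, and in 63.2 and 5.10% in the cKO.

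Levels of the genes in the control arch were lower in cells with more Myh11. Control arch cells with 5 to 9, 10 to 24, 25 to 49 and 50 or more Myh11 UMIs had Msx2 at 37.6, 38.8, 25.6 and 15.0 CPM and Dlx5 at 53.2, 51.2, 31.9 and 18.2 CPM. Msx1 measured 48.5, 30.3, 25.4 and 20.5 CPM across the same steps. All 3 levels were lowest in the cells with the most Myh11, which are also the deepest, with medians of 5266.5, 11126, 14720 and 21502 UMIs over the steps. The share of Msx1-positive cells went the other way, at 19.8, 24.1, 27.4 and 30.7%, while Msx2 was positive in 11.4, 18.4, 11.8 and 9.38%. In the cKO arch Dlx5 was at 14.6, 8.77, 7.65 and 6.62 CPM over these steps. Msx2 was there at 3.35, 7.45, 7.84 and 7.04 CPM and Msx1 at 19.8, 21.9, 21.8 and 19.5 CPM, without the control arch pattern. Across the gate's threshold, 139 control arch cells with 5 or 6 Myh11 UMIs had Msx2 at 27.6 and Dlx5 at 41.9 CPM, and 224 cells with 3 or 4, just outside it, had 23.1 and 47.0 CPM.

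Rgs5, a regulator of G protein signalling that marks pericytes and some arterial muscle, separated the cells more sharply; it was chosen because earlier results had shown it beside these genes. Msx2 was positive in 1.30% of the 1765 control arch cells with 0 Rgs5 UMIs, in 3.41% of the 1202 cells with 1 to 4 and in 40.4% of the 1147 cells with 5 or more. For Dlx5 the shares were 4.36, 7.82 and 51.2%, for Dlx6 1.36, 3.33 and 33.2%, and for Msx1 22.9, 22.2 and 37.9%. The cells rich in Rgs5 held 93.8% of the Msx2 UMIs of the gate. Cells rich in Rgs5 made up 36.4% of the control and 41.2% of the cKO descending gate but mostly lacked Msx2 and Dlx5. In the descending aorta Msx2 was found in 2 of 491 control and 0 of 680 cKO cells with 5 or more Rgs5 UMIs, and Dlx5 in 4.68 and 1.32%. Msx1 was positive in 15.7 and 10.1% of them, near its share in the whole descending gates.

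Cells rich in Rgs5 made up 27.9% of the control arch gate and 5.81% of the cKO arch gate (74 cells), and Rgs5 itself was 530 and 120 CPM. Among them Msx2 was at 73.7 CPM in the control and 44.7 CPM in the cKO, a log2 ratio of -0.71 (-1.15 to -0.32). Dlx5 had -1.18 (-1.67 to -0.76), Dlx6 -1.48 (-2.41 to -0.78) and Msx1 -0.51 (-1.13 to 0.01). Within this stratum the genotype difference of Msx2 was smaller than over the whole gate. Since Rgs5 itself was lower in the cKO, a stratum need not hold the same kind of cells in both genotypes, and this and a change within a kind of cell cannot be told apart. Among cells with 0 Rgs5 UMIs the ratios were above 0, with Msx2 at 1.06 CPM in the control and 3.46 CPM in the cKO (27 and 47 UMIs, 1.70, 0.99 to 2.45), Dlx5 at 0.79 (0.38 to 1.19) and Dlx6 at 1.46 (0.81 to 2.14, from 34 and 50 UMIs). The Msx2 and Dlx6 sums are under 100 UMIs. Msx1 was near even there, at 0.03 (-0.18 to 0.24). In the cKO 39.5% of the Msx2 UMIs lay in cells without Rgs5, which were 77.6% of its gate. In the control it was 1.71%, in cells that were 42.9% of the gate. The cells rich in Rgs5 held 42.9% of the Msx2 UMIs of the cKO.

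**Figure D4:**
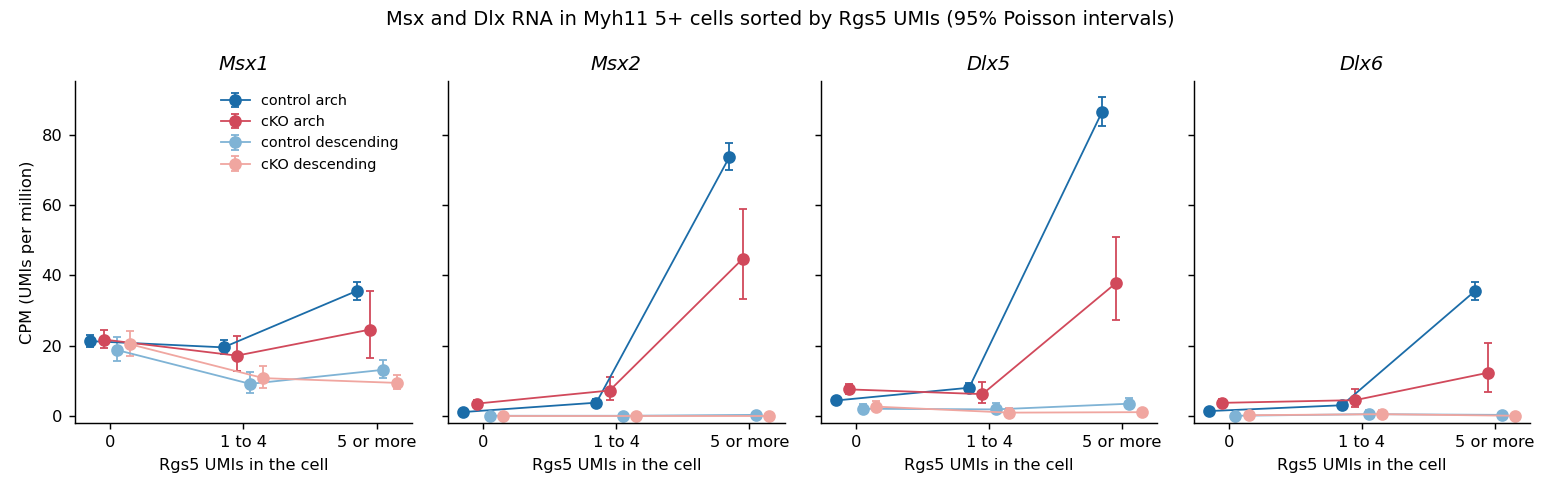
Summed level in CPM of each gene in Myh11 5+ cells split by their Rgs5 UMIs (0, 1 to 4, 5 or more), with 1 line per library and 95% Poisson intervals. In the cells with 5 or more Rgs5 UMIs Msx2 reaches 73.7 CPM in the control arch and 44.7 CPM in the cKO arch, and the descending libraries stay near 0.

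Control arch cells with UMIs of at least 2 of the 4 genes (658) were set against those with none (2504) to see what else these cells express. Of 11571 genes tested, 4.11% were higher by 2-fold or more and 2.02% lower, and the median was 0.11. Apart from the 4 members, the highest named gene with 20 CPM in either set was Dlx2 with a log2 ratio of 7.15. Next were the cell adhesion gene Mdga2 with 6.51, Coch, which encodes the matrix protein cochlin, with 6.40, Dlx6os1 with 6.24 and Stk32a with 5.80. The engulfment receptor gene Megf10 had 5.61, Hhip 5.60, the neuronal adhesion gene Negr1 5.43, Gpr45 5.42 and Lrrtm3 5.38. Hhip, which encodes a membrane protein that binds hedgehog ligands, was at 83.9 CPM in the positive and 1.72 CPM in the negative cells. In the cKO arch (80 against 898 cells) all 10 had the same direction, each from under 100 UMIs, and 9 had an interval off 0. The exception was Gpr45 with 1.91.

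The lowest genes of that contrast, under the same limit of 20 CPM, encode muscle proteins in several cases. Actc1, cardiac actin, had a log2 ratio of -3.40, Tnnt2, cardiac troponin T, -2.41, Myo18b -2.27, Des, the intermediate filament desmin, -2.12 and the myosin light chain kinase gene Mylk4 -2.06. Des was at 43.7 CPM in the positive and 190 CPM in the negative cells, and Mylk4 at 82.0 and 341 CPM. The others were Vstm2b at -2.18, Bex4 at -2.17, Dock10 at -2.12, Itih4 at -2.02 and Slc38a11 at -1.93. All 10 ratios were below 0 in the cKO arch too, 6 of them with an interval off 0. They were -2.71 for Bex4, -1.62 for Dock10, -1.60 for Mylk4, -1.53 for Vstm2b, -1.08 for Des, -0.95 for Slc38a11, -0.73 for Myo18b, -0.62 for Itih4 and -0.18 for Tnnt2. Actc1 had 0 and 7 UMIs there, too few to give its size, and Vstm2b and Myo18b also had under 100 UMIs. In the cKO arch 1.95% of 8991 genes were higher and 1.89% lower by 2-fold.

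**Figure D5:**
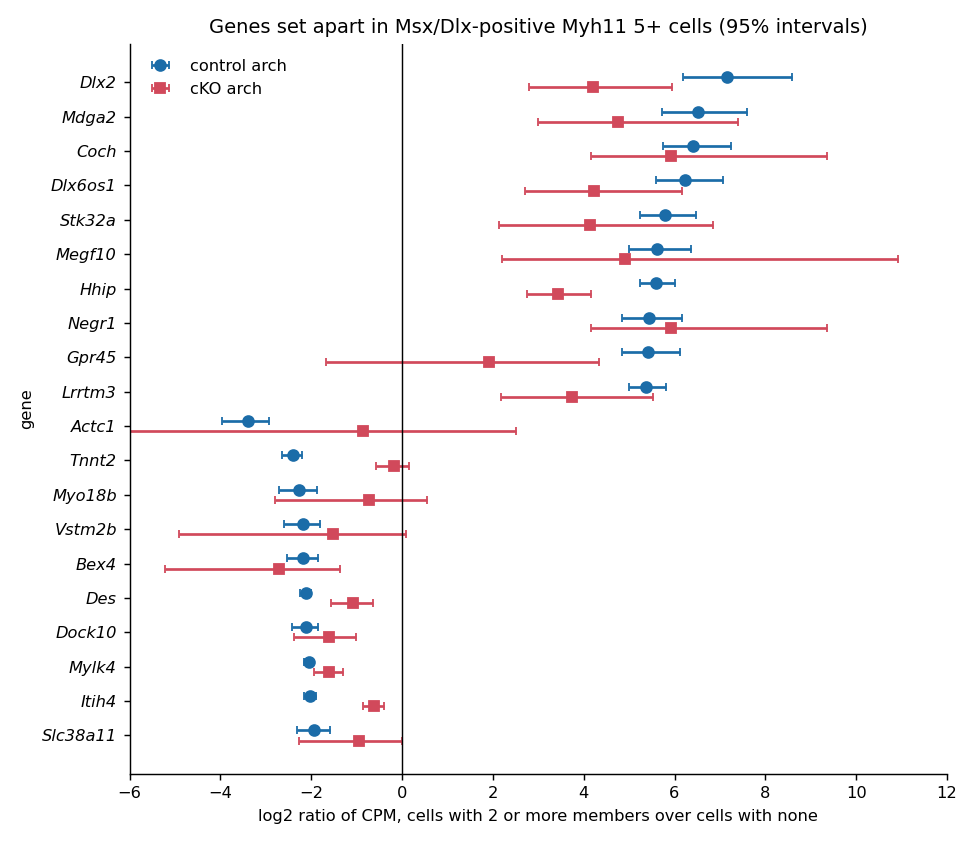
Log2 ratio of Myh11 5+ cells with at least 2 of the 4 genes to cells with none, with 95% conditional intervals. Shown are the 10 highest and 10 lowest named genes with 20 CPM in either set, in the control and the cKO arch. The control arch runs from 7.15 for Dlx2 to -3.40 for Actc1, and the cKO arch has the same direction for all 20; its Actc1 interval has no lower bound and leaves the axis.

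Gene lists give the surroundings of the 4 genes in the same contrast. In it 4.11% of 11571 genes were higher by 2-fold or more and 2.02% lower. Of the family list, 3 of 7 relatives had enough UMIs and all were higher by 2-fold, which are Dlx1, Dlx2 and Dlx6os1. Of the endothelin and neural crest list 20 of 26 genes were measured, with a median of 0.13, 5 higher and 3 lower by 2-fold. Tfap2b, a neural crest transcription factor, had 5.05 (31.6 against 0.944 CPM), the homeobox gene Prrx2 4.51 (223 against 9.80 CPM), the endothelin receptor gene Ednra 2.26 and Sox9, a cartilage and crest factor, 1.99. In the cKO arch these were 5.62, 3.38, 0.84 and 1.91. The list as a whole was near the median of all genes, and single factors stood far above it.

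Of the BMP target list 14 of 15 were measured, with a median of 0.55. By 2-fold 5 were higher and 0 lower, against 4.11 and 2.02% of all genes. Nog, which encodes the secreted BMP antagonist noggin, had 5.46 (11.5 against 0.25 CPM), the Notch and BMP target Hey1 1.89, the ligand gene Bmp4 1.35 and the decoy receptor gene Bambi 1.22. In the cKO arch they were 4.88, 1.36, 0.29 and 0.37, but Nog and Hey1 had under 100 UMIs there. Of the 11 genes with enough, 0 passed 2-fold, where 1.95% of 8991 genes were higher and 1.89% lower. Over the whole Myh11 gate, Id1 and Id3, the most direct targets, had cKO to control log2 ratios of -0.50 and -0.29 in the arch.

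Of the osteogenic and cartilage list 9 of 14 were measured in the control arch, with a median of 0.33, 2 higher and 1 lower by 2-fold. In the cKO arch 7 were measured, with a median of 0.86, 3 higher and 0 lower. Over all genes 4.11% were higher and 2.02% lower in the control arch, and 1.95 and 1.89% in the cKO arch. Runx2, the master factor of bone formation, had 4.04 and 2.60 in the control and cKO arch. Ibsp, bone sialoprotein, had 1.48 in the control and 6.33 in the cKO arch, where it was at 144 CPM in the positive and 1.75 CPM in the negative cells. Tnfrsf11b went opposite ways, at -1.08 (-1.41 to -0.78) in the control and 1.41 (1.25 to 1.56) in the cKO arch. Sost, the gene of the Wnt inhibitor sclerostin, had 0.97 and 0.86.

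Of the pericyte list 7 of 9 were measured, with a median of 0.23. By 2-fold 2 were higher and 2 lower, against 4.11 and 2.02% of all genes. Rgs5 had 3.43 (1800 against 167 CPM) and Kcnj8, a potassium channel gene, 1.64, but Notch3 had -1.42 and Mcam -1.11, so members of the list went both ways. Of the Wnt list 9 of 16 were measured, with a median of 0.01, 1 higher and 2 lower, against the same shares. Sfrp2, a secreted Wnt inhibitor, had 1.46, and Wnt16 -1.71, Nkd2 -1.40 and Wnt5a 0.88. All 12 contractile genes were measured, with a median of -0.58. Only Des passed 2-fold, and Ldb3 had -0.92, Tagln -0.82 and Acta2 -0.76.

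The cKO arch library has a feature named RFP, not explained in the sources used here and not listed in the other files. Its Myh11 5+ cells with 16 or more RFP UMIs (412) and those under 8 (727) differed little in Msx1, at a log2 ratio of high to low of 0.10 (-0.24 to 0.44), and in summed Msx2, at -0.03 (-0.61 to 0.53). Msx2 was positive in 6.80% of RFP-high and 3.85% of RFP-low cells, and a single RFP-low cell held 14 of the 76 Msx2 UMIs there. The 134 cells between had 1 Msx2 UMI. Dlx5 was higher in the RFP-high cells, 13.3 against 8.53 CPM with a ratio of 0.64 (0.16 to 1.11), and Dlx6 was at 8.55 against 2.88 CPM, 1.56 (0.86 to 2.30), from 75 UMIs. The same cells had Id1 at -1.12 and Smad4 at -0.85. So 0 of the members with 100 UMIs passed 2-fold, where 0.67% of 9400 genes were lower and 1.68% higher.

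Across 29 points, each a gate in a library, the genes most like each member were found by Pearson r of log2(CPM + 1), as a description whose points share libraries, depth and marker choice. A gene needed 20 CPM in at least 1 point to be named, which Dlx6 did not reach. For Msx1 they were Lnx1 (0.92), Crispld1 (0.91), Frzb (0.91), Mecom (0.90) and Stk32b (0.89). For Msx2 they were Slc25a34 (0.82), Hand2 (0.77), Foxf1 (0.73), Mia (0.73) and Tnnt2 (0.73), with Dlx6 at 0.78. Likeness across gates is not likeness between cells, and Tnnt2 had -2.41 in the control arch contrast of positive cells. For Dlx5 they were Stk32b (0.88), Frzb (0.87), Lnx1 (0.87), Msx1 (0.86) and Ace (0.84), with Dlx6 at 0.90. For Dlx6 they were Dlx5 (0.90), Msx2 (0.78), Crispld1 (0.78), Smoc1 (0.78) and Frzb (0.77). Across gates Msx2 went less with Msx1 (0.52) and Dlx5 (0.63), both of which were also high in gates with little Msx2.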

How the data were processed

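Cells of 4 mouse aorta libraries were counted with a 5′ droplet kit. The authors deposited whole-number UMI counts of each gene in each called barcode. Cell Ranger did the counting against mm10, as version 6.1.1 per the submitters' processing notes and 6.1.2 per the file headers. Depth was 49407811 to 98866674 UMIs per library, of which the shared identifiers hold 99.5 to 99.6%.

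Cells with at least 500 genes and under 10% mitochondrial UMIs were kept and gated on raw UMIs. Apart from Myh11 5 or more, gates need Myh11 under 5. They take 3 UMIs of paired or grouped markers, 2 of Ptprc or Tnfrsf11b, or 1 of Pdgfra with 5 of Dcn. A cell in several gates is left out, but the Kcnj8, Abcc9 and Higd1b gate goes before the Tnfrsf11b gate and both before the fibroblast gate. No doublet caller was run; alternatives drop cells of another gate or the deepest 5%. UMIs were summed per gate and scaled to CPM, with exact Poisson, conditional and Clopper-Pearson intervals at 95% and a prior of 0.5 UMI in log2 ratios. A gene counts as tested with 100 UMIs in both sets together. With 1 library a group no test was made. Analyses used Python 3.11.15, numpy 2.4.6, scipy 1.17.1 and pandas 2.3.3, checked on simulated data.

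The members and the 7 lists were chosen with earlier results of these data known. Named genes are the members, their relatives, up to 4 per list furthest from 0, the 10 highest and 10 lowest in the contrast of positive cells with 20 CPM in either set, and 5 by likeness with 20 CPM in a point. That contrast leaves out unnamed, mitochondrial, ribosomal, haemoglobin and immune receptor genes. Dcn, Spp1, Rgs5 levels and Ddx3y were named after their values were seen.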

Additional observations from a re-analysis of the deposited data

Results flagged for a closer look

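Several differences between the cKO and the control arch ran opposite ways in different groups of cells, with intervals on either side of 0; in each case the difference was not tested. Dlx5 had a log2 ratio of -1.74 in Myh11 5+ cells and -1.27 in the Kcnj8, Abcc9 and Higd1b gate, but 2.70 in the Tnfrsf11b gate. The last value came from 180 UMIs in 357 cKO cells and 4 UMIs in 53 control cells. Dcn in that gate differed between the genotypes, so it need not hold the same kind of cells in both. Dlx6 had -1.51 in Myh11 5+ cells and -1.54 in endothelial cells (3 and 40 UMIs in cKO and control), but 1.84 in fibroblasts (15 and 10 UMIs) and 2.29 in the Tnfrsf11b gate (45 and 1 UMIs), each under 100 UMIs.

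Inside the Myh11 gate, strata by Rgs5 UMIs gave ratios of both signs. Rgs5 itself was 530 CPM in the control and 120 CPM in the cKO arch, so the strata need not hold the same kind of cells. Msx2 had 1.70 in cells with 0 Rgs5 UMIs, from 47 and 27 UMIs in cKO and control. It had 0.97 in cells with 1 to 4, from 21 and 71 UMIs, but -0.71 in cells with 5 or more. The sums of the first and of the second stratum are each under 100 UMIs. In the second, a single cKO cell held 14 of the 21 UMIs, and Msx2 was positive in 2.84% of cKO and 3.41% of control cells. Dlx5 had 0.79 without Rgs5 and -1.18 with 5 or more. Dlx6 had 1.46, from 50 and 34 UMIs and so under 100, and -1.48.

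Tnfrsf11b in the contrast of cells with 2 or more members against none had -1.08 in the control arch and 1.41 in the cKO arch.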

How the results depend on the processing

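Of 270 values over 30 results and 10 alternative settings, 213 stayed within counting error and 57 moved beyond it. A change of direction was seen in 0, but only the 8 results that are log2 ratios could show one, since a share has no sign. The cause of a move was not tested. Myh11 cutoffs of 3 or 10, a filter of 1000 genes and 5% mitochondrial UMIs, no filter, and median-of-ratios scaling moved none. Without the 5% deepest cells Msx2 cKO to control in the arch was -1.52 and the control arch Msx1 share 25.2%; without cells passing another gate that share was 25.1%.

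Without cells of the Kcnj8, Abcc9 and Higd1b gate, chosen after the data had been seen, the arch genotype ratios of Msx2, Dlx5 and Dlx6 were -0.99, -1.16 and -0.82, and the control region ratios of Msx1 and Dlx5 0.26 and 2.90. Shares of Msx1, Msx2, Dlx5 and Dlx6 in the control arch were 23.1, 8.45, 13.0 and 7.30%; Msx1 had 19.7% for the cKO arch and 14.8% for the cKO descending library, Msx2 0% for the control descending. Msx2, Dlx5 and Dlx6 were in 16.7, 21.3 and 14.1% of Msx1-positive, Dlx5 and Dlx6 in 73.3 and 52.5% of Msx2-positive, and Dlx6 in 44.1% of Dlx5-positive control arch cells.

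Thinned to 5000 UMIs, Dlx6 cKO to control in the arch was -0.78. The shares in the same gene order were 10.8, 7.32, 10.7 and 4.58% in the control arch and 9.54, 2.41, 4.04 and 2.75% in the cKO arch; Msx1, Msx2 and Dlx5 were 5.64, 0 and 1.18% in the control descending, and Msx1 and Dlx5 6.11 and 0.561% in the cKO descending. The co-detection shares in the order above were 13.2, 14.8, 8.13, 50.2, 21.6 and 21.8%.

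With 2 UMIs asked of a positive cell, the control arch gave 7.68, 8.02, 11.3 and 5.15%, the cKO arch 5.11, 2.04, 2.99 and 1.18%, the control descending 2.89, 0 and 0.296% for Msx1, Msx2 and Dlx5, and the cKO descending 2.55 and 0.121% for Msx1 and Dlx5. Dlx5 and Dlx6 were then in 74.8 and 40.3% of Msx2-positive and Dlx6 in 34.8% of Dlx5-positive control arch cells. No paired analysis was possible because each group has 1 library. Dlx5 in the descending and Dlx6 in the cKO region comparison fall under 100 UMIs.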

Other observations

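Cells that passed no gate also held these RNAs. In the control arch 1124 such cells had Msx1 at 56.8 CPM, Dlx5 at 17.1 CPM and Msx2 at 7.77 CPM, with a median of 1986 UMIs per cell, and in the cKO arch 1885 such cells had 13.5, 6.52 and 2.12 CPM. Control arch cells under the Myh11 cutoff that passed several gates (429) had Msx1 at 81.4, Dlx5 at 52.0 and Dlx6 at 17 CPM, and they entered no comparison.

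Hand2, a crest-related factor whose level across gates was among those most like that of Msx2, was at 63.0 and 58.7 CPM in Myh11 5+ cells of the control and cKO arch and at 0.692 and 0.885 CPM in the descending libraries. Unlike Msx2, it was thus near even between the arch genotypes.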
